A study of Mus musculus with 6 samples.

Results

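The genes described here are 8 receptors through which myeloid cells sense chemoattractants, Ccr1, Ccr2, Cx3cr1, Cxcr2, Cxcr4, Ackr3, Fpr1 and Fpr2, taken by symbol from the 54532 genes of the deposited expression table. Their mRNA was measured in mouse bone marrow-derived macrophages (BMDMs) after in vitro co-culture with ID8, a mouse ovarian cancer cell line. Before the co-culture, the ID8 cells of 3 libraries were exposed to cisplatin at 40 µM, a chemotherapy drug whose platinum binds and crosslinks DNA, and those of the other 3 libraries to phosphate-buffered saline (PBS), so that every library comes from cells that had met ID8 cells and none from BMDMs alone. The marrow came from C57BL/6 mice aged 6 to 8 weeks. The methods call the cells monocytes, and name serum but no growth factor for their medium. How long the co-culture lasted, and how the ID8 cells were separated from the BMDMs before RNA was extracted, is not given in the sources used here. The labels do not say whether the 3 libraries of a group came from separate cultures or animals, so p-values measure only the spread between these libraries.

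Chemokine receptors and formyl peptide receptors are cell surface receptors with 7 membrane-spanning helices that signal through inhibitory G proteins and steer a leukocyte up a gradient of its ligand. CCR2 is needed for monocytes to leave the bone marrow, CX3CR1 marks patrolling monocytes and many tissue macrophages, CXCR2 drives the recruitment of neutrophils, and CXCR4 retains leukocytes in the marrow. ACKR3 binds the ligand of CXCR4 without signalling through G proteins and removes it, while the formyl peptide receptors detect peptides of bacteria and of damaged mitochondria.

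The reads recovered from the deposited values summed to between 15776238 and 17924686 per library. Defining markers of macrophages were present throughout, with Adgre1 (the F4/80 antigen) at 190 ± 3.52 FPKM with cisplatin and 103 ± 1.06 FPKM with PBS, and Csf1r (the receptor for macrophage colony-stimulating factor) at 84.5 ± 2.37 and 44.0 ± 0.62 FPKM (SD, n = 3 each). FPKM is the number of fragments scaled by the length of the gene and by the number of reads in the library, a level that can be compared between genes. Neutrophil, B cell and ID8 markers were also detected in all libraries, with the values given beside the results they move with.

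The 8 genes lie on 3 chromosomes, given here on GRCm38 as the table states them. Ccr1 (chromosome 9, 123962124 to 123968692) and Ccr2 (chromosome 9, 124101950 to 124113557) belong to a cluster of CC chemokine receptor genes, and Cx3cr1 (119901616 to 120069879) lies on the same chromosome. Cxcr2 (74153989 to 74161246), Ackr3 (90203980 to 90216751) and Cxcr4 (128588199 to 128592293) are on chromosome 1. Fpr1 (17876471 to 17883940) and Fpr2 (17887824 to 17893952) are neighbours on chromosome 17. The start regions of the clustered genes Ccr1 and Ccr2, which had the largest fold changes upwards, and of Ackr3, the only one of the 8 called lower, are shown to let them be compared. Each runs from 250 bases before to 50 bases after the RefSeq start (GRCm38.p6, all 8 genes matched by symbol), 5′ to 3′ on the gene's strand, as chr9:123968643-123968942 (minus strand), chr9:124101933-124102232 (plus strand) and chr1:90203730-90204029 (plus strand), with capitals marking any match to the motifs named after them.
Ccr1: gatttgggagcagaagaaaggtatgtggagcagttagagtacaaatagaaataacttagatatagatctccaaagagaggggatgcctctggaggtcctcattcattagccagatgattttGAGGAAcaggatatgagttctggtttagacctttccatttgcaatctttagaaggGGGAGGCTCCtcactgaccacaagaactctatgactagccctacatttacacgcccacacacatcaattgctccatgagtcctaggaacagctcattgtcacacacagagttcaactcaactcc
Ccr2: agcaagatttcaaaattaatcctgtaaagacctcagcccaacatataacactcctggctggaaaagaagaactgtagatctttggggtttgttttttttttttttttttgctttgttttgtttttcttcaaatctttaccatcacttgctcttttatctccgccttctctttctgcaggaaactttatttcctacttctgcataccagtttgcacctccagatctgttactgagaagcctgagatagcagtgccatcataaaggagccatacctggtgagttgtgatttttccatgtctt
Ackr3: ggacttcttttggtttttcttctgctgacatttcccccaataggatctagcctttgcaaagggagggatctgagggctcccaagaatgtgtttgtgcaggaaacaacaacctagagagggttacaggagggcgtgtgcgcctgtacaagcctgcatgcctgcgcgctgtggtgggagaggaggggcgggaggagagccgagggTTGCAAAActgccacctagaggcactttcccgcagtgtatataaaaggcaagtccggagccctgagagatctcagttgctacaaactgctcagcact
The motifs searched on both strands were GAGGAA for PU.1, TTGCNNAA for C/EBP, GGG and CC set 5 bases of any kind apart for NF-κB, GAAA, 2 bases of any kind and GAAA again for the interferon-stimulated response element and ACGTG for the core of the hypoxia response element. PU.1 letters were found in 3 of the 8 windows (Ccr1, Cxcr2 and Fpr2) and in 28.3% of all 32851 windows of this length, NF-κB letters in 3 of 8 (Ccr1, Cx3cr1 and Cxcr2) and in 50.8%, and C/EBP letters in 1 of 8 (Ackr3) and in 10.8%. None of the 8 windows held the letters of the interferon-stimulated response element, found in 3.44% of all windows, or of the hypoxia core, found in 19.6%. The Ccr2 window held no match to any of them, and no capitals appear in it.

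All 8 receptor genes were detected in every library and entered the test, which covered 13441 genes. In BMDMs that met cisplatin-exposed ID8 cells, Ccr2, Ccr1, Cxcr4 and Fpr1 were called higher, Ackr3 was called lower, and Cx3cr1, Cxcr2 and Fpr2 were higher at an adjusted p under 0.05 but short of the fold change threshold, with Cxcr2 and Fpr2 changing sign under other scalings given later. When scaled by pan-leukocyte or Y-linked genes, Ccr2 and Ackr3 kept their calls, and Ccr1, Cxcr4 and Fpr1 stayed higher at the adjusted p but fell short of the fold change threshold. A gene was called at a Benjamini-Hochberg adjusted p under 0.05 (limma, two-sided, over all tested genes) together with a log2 fold change no smaller than 1 in either direction. Across all tested genes 4.67% were called higher and 11.3% lower, while the adjusted p alone found 32.9% higher and 35.1% lower. The 3 libraries of one group lay apart from those of the other for all 8 receptors, 7 with cisplatin higher and 1 with PBS higher, and this was so for 35.2% and 37.2% of all tested genes. The median log2 fold change of the 8 receptors was 0.96, and that of all tested genes was -0.0011. Ackr3 passed the filter on low values only through the PBS libraries, so its count adds nothing beyond its values. Fold changes refer to log2(FPKM + 1), and for genes of low level they come out smaller than the ratio of the means.

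**Figure D1:**
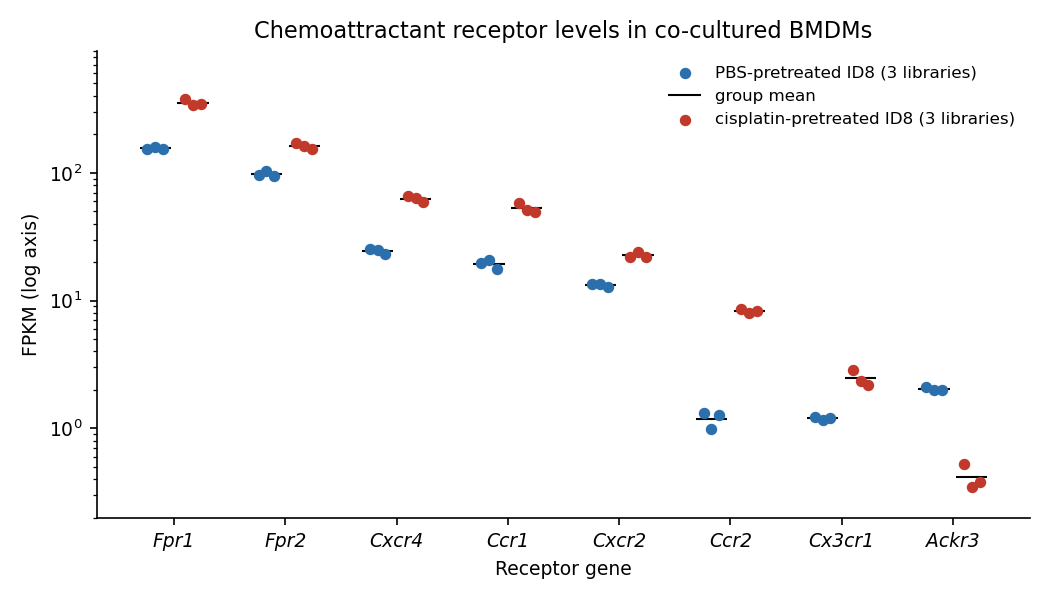
FPKM (log axis) of the 8 receptor genes in each of the 6 libraries, ordered by mean level, with PBS-pretreated ID8 in blue, cisplatin-pretreated ID8 in red and black lines at the group means. In each gene the 3 red points lie apart from the 3 blue points, above them in 7 genes (of which Cxcr2 and Fpr2 change sign when scaled by Y-linked genes) and below them in Ackr3, where the means are 0.42 and 2.03 FPKM.

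Ccr2, the receptor that brings classical monocytes out of the marrow, had the largest fold change of the 8. Its level was 8.52, 7.96 and 8.35 FPKM in the cisplatin libraries and 1.31, 0.997 and 1.28 FPKM in the PBS libraries. All cisplatin libraries were high, all PBS libraries were low, and the ratio of the group means was 6.92. On log2(FPKM + 1) Ccr2 rose by 2.08 (SE 0.077, n = 3 each, limma, adjusted p = 9.11e-07), and 0.327% of all tested genes had a larger log2 fold change. Between 884 and 980 reads lay behind each cisplatin value and between 105 and 157 behind each PBS value. Of the 8 genes on a list of classical monocyte genes, 5 were called higher and 2 lower, 1 of the former (Vcan) having passed the filter only through the cisplatin libraries so that it had to differ, and their summed level was 790 to 855 FPKM with cisplatin and 436 to 453 FPKM with PBS. Ly6c2, which encodes a Ly6C antigen of these monocytes, went from 36.4 ± 1.38 to 94.2 ± 4.81 FPKM (SD, n = 3 each). The part of these markers in the rise of Ccr2 was not tested, and in bulk RNA a change in the number of cells of a type and a change in RNA per cell cannot be told apart.

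Ccr1, which binds inflammatory CC chemokines such as CCL3 and CCL5, was at 58.2, 51.1 and 49.4 FPKM with cisplatin and at 19.6, 20.6 and 17.8 FPKM with PBS. The lowest cisplatin library was more than double the highest PBS library in FPKM, so the groups did not overlap. Ccr1 rose by 1.40 on log2(FPKM + 1) (SE 0.077, n = 3 each, limma, adjusted p = 6.02e-06), with a ratio of means of 2.74.

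Further genes of the chromosome 9 cluster were measured. Ccr3, an eosinophil receptor between them, was at 1.79 ± 0.054 FPKM with cisplatin and 1.16 ± 0.075 with PBS (log2 fold change 0.37, limma, adjusted p = 0.00522). Ccr1l1, next to Ccr1, stayed at 0.087 and 0.051 FPKM on average and was not tested.

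Cx3cr1, the fractalkine receptor, was at 2.86, 2.35 and 2.20 FPKM with cisplatin and at 1.23, 1.17 and 1.22 FPKM with PBS. The groups did not overlap although the cisplatin libraries spread more widely than the PBS libraries. Its log2 fold change was 0.65 (SE 0.094, n = 3 each, limma, adjusted p = 0.000754), on 164 to 219 reads with cisplatin and 82 to 98 with PBS. A fit on the recovered reads without a pseudocount (limma voom) put its log2 fold change at 1.11, past both thresholds, whereas it was 0.16 (limma, adjusted p = 0.165) when scaled by pan-leukocyte genes and 0.019 (adjusted p = 0.854) when scaled by Y-linked genes. The patrolling monocyte list, 8 genes, split into 2 called higher and 2 called lower, of the latter Ace having passed the filter only through the PBS libraries so that it had to differ, and the list's summed level was 277 to 291 FPKM with cisplatin and 234 to 265 with PBS. The largest part of this sum was Cebpb, whose groups overlapped at 143 ± 6.98 FPKM with cisplatin and 149 ± 14.3 with PBS. Nr4a1, the transcription factor those monocytes depend on, fell to 5.54 ± 0.18 FPKM with cisplatin against 19.5 ± 1.31 with PBS. Treml4 (20.1 ± 0.42 against 5.65 ± 0.45 FPKM) and Spn (37.9 ± 1.22 against 16.3 ± 0.40 FPKM), the list's genes called higher, are named after their values were seen. The Cx3cr1 gene model overlaps exons of Gm33858 on the other strand over 78 bases, 1.73% of its exon length.

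Cxcr2, which binds the neutrophil-attracting CXC chemokines, was at 22.0, 24.1 and 21.8 FPKM with cisplatin and at 13.5, 13.5 and 12.7 FPKM with PBS. Its groups lay apart, with a log2 fold change of 0.73 (SE 0.052, n = 3 each, limma, adjusted p = 2.08e-05) that became -0.21 when scaled by Y-linked genes. Its neighbour Cxcr1, a receptor for part of the same ligands 30538 bases away, was called lower, with 0.19 ± 0.086 FPKM in the cisplatin group and 2.79 ± 0.57 FPKM in the PBS group, but passed the filter only through the latter. Of 12 neutrophil markers, 8 were called higher, and the summed level of the list was 9367 to 9598 FPKM with cisplatin and 5062 to 5207 with PBS. Most of this sum came from S100a9 (5233 against 3105 FPKM) and S100a8 (2581 against 1423 FPKM). Ly6g, the marker most particular to mouse neutrophils, was low and did not pass the test, at 3.15 ± 0.36 and 2.81 ± 0.46 FPKM (limma, adjusted p = 0.349). The part of these markers in the values of Cxcr2 and of the formyl peptide receptors was not tested.

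Cxcr4, the receptor for CXCL12, was at 65.6, 63.2 and 58.9 FPKM with cisplatin and at 25.3, 24.8 and 23.3 FPKM with PBS. Every cisplatin library was above every PBS library, and Cxcr4 rose by 1.32 on log2(FPKM + 1) (SE 0.053, n = 3 each, limma, adjusted p = 1.32e-06).

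Ackr3, the scavenging receptor for the same ligand, was the only gene of the 8 called lower, under the deposited values as under the pan-leukocyte and Y-linked scalings. Its level was 0.527, 0.346 and 0.380 FPKM with cisplatin and 2.13, 1.99 and 1.98 FPKM with PBS, on 19 to 30 reads and 103 to 126 reads. The cisplatin libraries were all low, and the PBS mean was 4.88 times the cisplatin mean. On log2(FPKM + 1) Ackr3 fell by 1.10 (SE 0.096, n = 3 each, limma, adjusted p = 5.63e-05), and on the recovered reads its log2 fold change was -2.20. Quantile normalisation brought it to -0.93, past the adjusted p but short of the fold change threshold. Genes of ID8 and mesothelial cells moved in the same direction: of 15 listed genes 10 were tested, 8 were called lower, and their summed level was 238 to 261 FPKM with cisplatin and 1312 to 1422 FPKM with PBS. Krt19, a keratin of epithelial and mesothelial cells, was at 51.1 ± 3.80 FPKM against 588 ± 28.8 with PBS. Whether the Ackr3 reads came from ID8 cells or from BMDMs cannot be told apart in these libraries.

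Fpr1, the high-affinity receptor for formyl peptides, had the highest level of the 8 in every library, at 377, 341 and 344 FPKM with cisplatin and at 155, 158 and 154 FPKM with PBS. The groups lay far apart, and Fpr1 rose by 1.18 on log2(FPKM + 1) (SE 0.045, n = 3 each, limma, adjusted p = 1.04e-06). Fpr2, a receptor that also binds annexin A1 and serum amyloid A, was at 169, 163 and 153 FPKM with cisplatin and at 96.3, 103 and 94.1 FPKM with PBS. Its log2 fold change of 0.72 (SE 0.052, n = 3 each, limma, adjusted p = 2.13e-05) was smaller than that of Fpr1 and became -0.27 when scaled by Y-linked genes. Of the 50-base stretches in the Fpr2 transcripts of GENCODE M21, 31.5% also occur in transcripts of Gm5966, Fpr3 or Fpr1, against 6.68% of those in Cxcr2, 1.91% in Ccr2, 1.06% in Cx3cr1, 0.0784% in Fpr1 and none in Ccr1, Cxcr4 and Ackr3 that occur in transcripts of any other gene, so the level of Fpr2 depends on how such reads were counted. Fpr3, which overlaps Fpr2 over 48 exon bases on the same strand, reached at most 0.712 FPKM in any library. The further family members Fpr-rs3, Fpr-rs4, Fpr-rs6 and Fpr-rs7 were listed at 0 in all 6 libraries.

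By level, the order with cisplatin was Fpr1, Fpr2, Cxcr4, Ccr1, Cxcr2, Ccr2, Cx3cr1 and Ackr3, and no neighbours in that order overlapped across the 3 libraries. With PBS the first 5 places were the same, followed by Ackr3, Cx3cr1 and Ccr2, of which Cx3cr1 (1.20 ± 0.032 FPKM) and Ccr2 (1.20 ± 0.17 FPKM) overlapped. Ccr2 thus stood above 55.8% of all tested genes in mean level with cisplatin and above 6.58% with PBS, and Ackr3 above 1.82% and 16.8%. The summed level of the 8 receptors was 665 ± 34.5 FPKM with cisplatin and 315 ± 8.89 FPKM with PBS (SD, n = 3 each).

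Shares of that sum do not depend on how the libraries were scaled to each other, but they do depend on the unit: in recovered reads, not corrected for gene length, the difference between the groups was 3.54 percentage points for Ccr2 in place of 0.864 and 1.64 for Fpr1 in place of 3.84. Fpr1 took 53.2% ± 0.88 of the summed receptor FPKM with cisplatin and 49.4% ± 0.76 with PBS, and Fpr2 took 24.4% ± 0.54 and 31.1% ± 0.66 (SD, n = 3 each). Ccr1 went from 6.14% ± 0.29 to 7.94% ± 0.29, Cxcr4 from 7.78% ± 0.25 to 9.40% ± 0.23 and Ccr2 from 0.381% ± 0.063 to 1.25% ± 0.054. Cxcr2 took a smaller share with cisplatin, 3.41% ± 0.28 against 4.21% ± 0.083, as did Ackr3, 0.0624% ± 0.011 against 0.647% ± 0.030. The share of Cx3cr1 was 0.370% ± 0.032 with cisplatin and 0.383% ± 0.020 with PBS, a difference smaller than the spread between libraries.

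**Figure D2:**
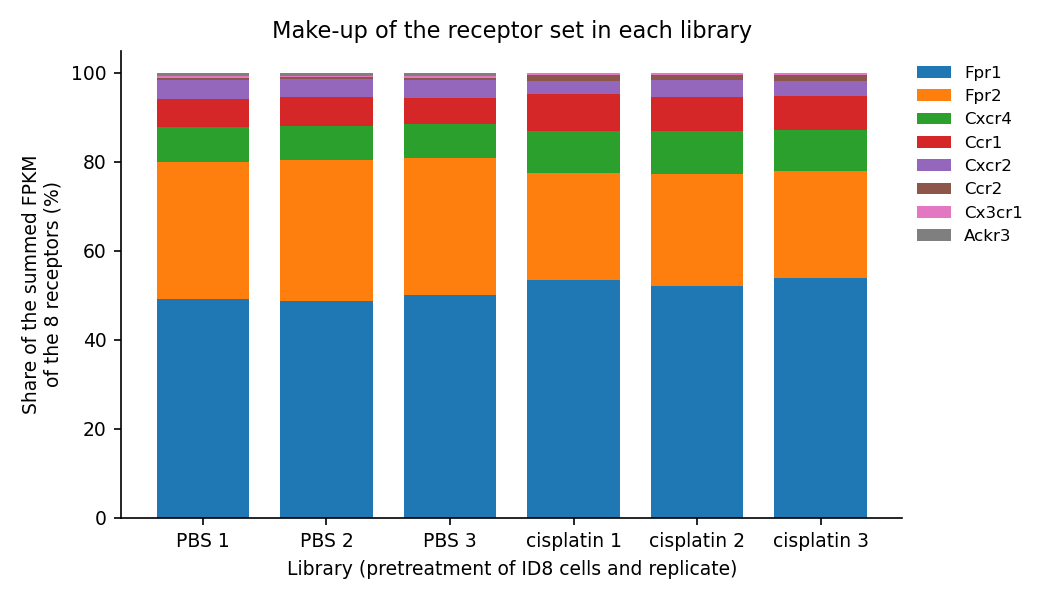
Share of each gene in the summed FPKM of the 8 receptors (%, bars stacked from 0) in each library. Fpr1 and Fpr2 fill most of every bar, and the Fpr2 part is smaller in the 3 cisplatin libraries (24.4% ± 0.54) than in the 3 PBS libraries (31.1% ± 0.66).

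Ratios between pairs of receptors inside a library were compared next. The ratio of Ccr2 to Cx3cr1, the receptors that set classical against patrolling monocytes, was 2.98, 3.39 and 3.79 with cisplatin and 1.07, 0.853 and 1.05 with PBS. The log2 of this ratio differed by 1.77 between the groups. The ratio of Cxcr4 to Ackr3 was 125, 183 and 155 with cisplatin against 11.9, 12.4 and 11.7 with PBS, a log2 difference of 3.66. That of Ccr2 to Ccr1 was 0.146, 0.156 and 0.169 against 0.0669, 0.0484 and 0.0718, a log2 difference of 1.35. Fpr2 to Fpr1 was 0.449, 0.478 and 0.446 with cisplatin against 0.623, 0.654 and 0.613 with PBS, a log2 difference of -0.46. In each of the 4 ratios the groups did not overlap, and a two-sided exact permutation test of the library labels gave p = 0.1 for each, adjusted p = 0.1 over the 4, which is the smallest value that 3 against 3 allows. Ackr3 passed the filter on low values only through the PBS libraries and had 19 to 30 reads with cisplatin. The separation of the Cxcr4 to Ackr3 ratio therefore adds nothing beyond the values of the genes.

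The FPKM values are relative to all RNA of a library, ID8 RNA included, so they were also set against genes of leukocytes. The 8 genes of a pan-leukocyte list (Ptprc, Laptm5, Cd53, Tyrobp, Fcer1g, Spi1, Coro1a and Itgb2) had log2 fold changes from 0.093 (Fcer1g) to 1.11 (Tyrobp). With each library divided by their geometric mean, the median log2 fold change of all tested genes became -0.64, and 0.945% of tested genes were called higher and 28% lower. Ccr2 was then the only receptor called higher, with a log2 fold change of 1.52 (SE 0.082, limma, adjusted p = 2.02e-06), and Ackr3 was called lower at -1.47 (SE 0.097, limma, adjusted p = 5.47e-06). Ccr1 (0.66), Cxcr4 (0.57) and Fpr1 (0.41) stayed higher at an adjusted p under 0.05 but no longer reached the fold change threshold, with 6.36% of all tested genes higher and 76.6% lower at that adjusted p. Cx3cr1 (0.16, 95% confidence interval -0.073 to 0.40), Cxcr2 (0.00058, -0.13 to 0.14) and Fpr2 (-0.046, -0.20 to 0.11) did not pass the test.

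A second scaling used 4 genes of the Y chromosome (Uty, Kdm5d, Ddx3y and Eif2s3y), whose summed level was 41.6 to 42.8 FPKM with cisplatin and 19.5 to 22.7 with PBS. Here the median log2 fold change over all tested genes was -0.83, with 0.632% of them called higher and 38.5% called lower, and 3.71% and 82.6% at the adjusted p alone. Ccr2 (log2 fold change 1.35) and Ackr3 (-1.58) kept their calls, Ccr1 (0.44), Cxcr4 (0.35) and Fpr1 (0.19) were higher at an adjusted p under 0.05 alone, Cx3cr1 was at 0.019, and Cxcr2 (-0.21) and Fpr2 (-0.27) were lower at an adjusted p under 0.05. A scaling divides all genes of a library by the same factor, so the place of a receptor among all tested genes still rests on the deposited values. That place can shift, because on log2(FPKM + 1) genes of low level move by less. In the deposited values 9.99% of all tested genes had a larger log2 fold change than Fpr2, against 14.4% under the pan-leukocyte and 16.0% under the Y-linked scaling.

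**Figure D3:**
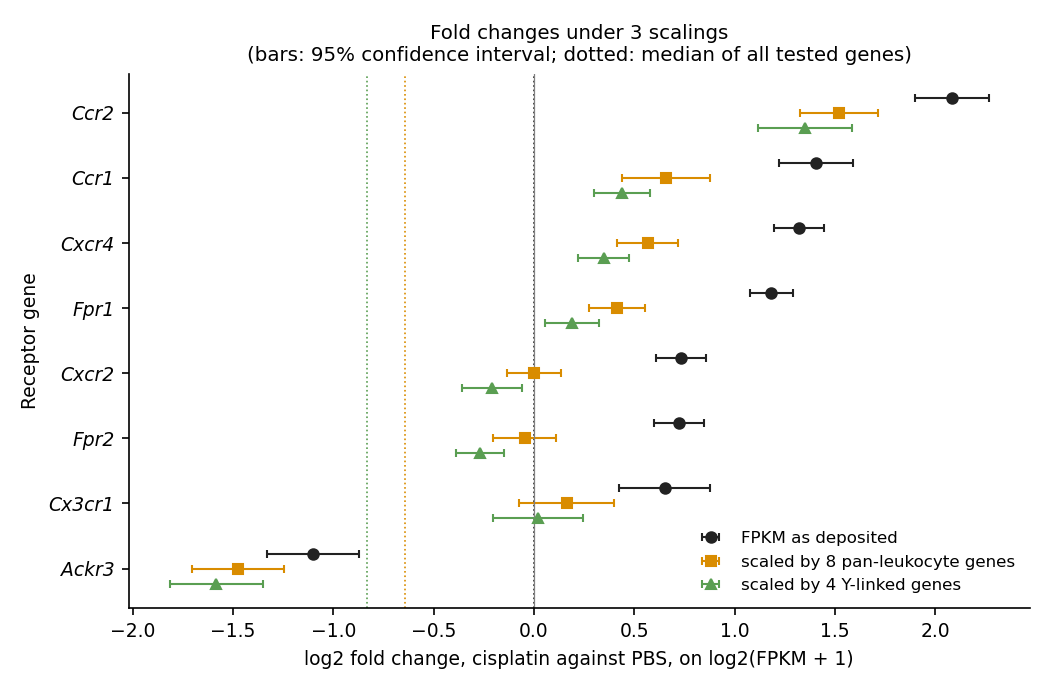
Log2 fold change of each receptor (cisplatin against PBS, on log2(FPKM + 1)) with its 95% confidence interval, for FPKM as deposited (black), scaled by 8 pan-leukocyte genes (orange) and scaled by 4 Y-linked genes (green), with dotted lines at the median of all tested genes. Ccr2 lies above 1 and Ackr3 below -1 in all 3, whereas Fpr2 goes from 0.72 to -0.046 and -0.27 and Cxcr2 from 0.73 to 0.00058 and -0.21.

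The other chemoattractant receptors were described from a list of 32 genes, of which 16 passed the filter on low values and 5 were listed at 0 in all libraries. Of the 16, 6 were called higher and 1, Cxcr1, lower. Cxcr1, Ccr9, Cxcr3 and C5ar2 passed the filter on low values only through the group in which they were higher, so they had to differ and add nothing to these counts beyond their values. The list's median log2 fold change of 0.61 lies between the values of Cxcr3 and C5ar2 and is given as a description. The largest change on log2(FPKM + 1) among the 16 was that of Cmklr1, the chemerin receptor, which went from 4.04 ± 0.089 to 27.0 ± 0.84 FPKM (log2 fold change 2.47, SE 0.044, limma, adjusted p = 6.70e-08). By the ratio of means, Cxcr1 (14.8, PBS over cisplatin) and Ccr9 (6.83, cisplatin over PBS) changed more than Cmklr1 (6.69). C5ar1, the receptor for the complement fragment C5a, rose from 26.5 ± 1.59 to 88.9 ± 1.77 FPKM (log2 fold change 1.71, limma, adjusted p = 3.05e-07), and C3ar1, the C3a receptor, from 21.4 ± 0.46 to 48.3 ± 1.78 FPKM (log2 fold change 1.13). Ptafr, the receptor for platelet-activating factor, had a log2 fold change of 1.20 and Ccr7, which guides dendritic cells to lymph nodes, of 1.004. Ccr9, the sixth gene called and named after its values were seen, was low, at 4.22 ± 0.22 and 0.617 ± 0.13 FPKM. Ccrl2, an atypical receptor that binds chemerin and was among the most abundant of the list, was lower with cisplatin at 45.6 ± 1.43 against 64.5 ± 2.47 FPKM (log2 fold change -0.49, limma, adjusted p = 5.06e-05). Scaled by the pan-leukocyte genes, 2 of these receptors were called higher and 5 lower.

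Ligands of the 8 receptors were measured in the same libraries, and of 23 listed genes 19 were tested, 6 called higher and 5 lower, and their median log2 fold change was -0.16. The counts were 4 higher and 8 lower under the pan-leukocyte scaling, and 4 and 9 under the Y-linked scaling. Ccl5, Ccl7, Ccl9, Cxcl5, Cxcl1, Camp and Anxa1 are named beyond the rule, after their values were seen. Ccl6, a ligand of CCR1, went from 45.2 ± 1.83 to 263 ± 6.38 FPKM (log2 fold change 2.52, limma, adjusted p = 6.00e-08), and Ccl12, a mouse ligand of CCR2, from 9.03 ± 1.16 to 40.7 ± 3.62 FPKM (log2 fold change 2.06, limma, adjusted p = 2.93e-06). Ccl9, a further CCR1 ligand, rose from 30.2 ± 0.695 to 79.1 ± 1.38 FPKM (log2 fold change 1.36), while Ccl5 fell from 15.4 ± 1.39 to 4.05 ± 0.41 FPKM (log2 fold change -1.70, limma, adjusted p = 3.77e-06). The more abundant Ccl2, the principal CCR2 ligand, was at 442 ± 18.0 FPKM with cisplatin and 493 ± 15.9 with PBS (log2 fold change -0.16, limma, adjusted p = 0.0154), and Ccl3 at 912 ± 30.8 and 1137 ± 10.9 FPKM (log2 fold change -0.32). Ccl7, also on the list, was higher short of the fold change threshold, at 320 ± 14.7 FPKM with cisplatin and 200 ± 8.24 with PBS (log2 fold change 0.68). Cx3cl1, which encodes the ligand of CX3CR1, was at 0.753 ± 0.17 FPKM with cisplatin and 6.56 ± 0.43 FPKM with PBS (log2 fold change -2.11, called lower). It passed the filter only through the PBS libraries, so it had to differ, and its call adds nothing beyond these values.

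Among ligands of CXCR2, Ppbp (log2 fold change 2.66) and Cxcl3 (2.51) were called higher, the latter from 28.0 ± 1.48 to 164 ± 4.79 FPKM. Cxcl5 was called lower, from 75.7 ± 6.76 to 31.5 ± 2.34 FPKM (log2 fold change -1.24, limma, adjusted p = 1.16e-05), and Cxcl1 was lower short of the fold change threshold, from 46.2 ± 2.02 to 29.1 ± 1.18 FPKM (log2 fold change -0.65). Cxcl2, more abundant than these and also named after its values were seen, was higher just short of that threshold, at 412 ± 21.2 against 209 ± 15.7 FPKM (log2 fold change 0.98, limma, adjusted p = 1.45e-05). Mif, a cytokine that also binds CXCR2 and CXCR4, fell from 455 ± 12.4 to 204 ± 2.83 FPKM (log2 fold change -1.15, limma, adjusted p = 3.09e-07). Cxcl12, named outside the rule because CXCR4 and ACKR3 share it, was too low for the test at 0.273 ± 0.11 FPKM with cisplatin and 0.553 ± 0.024 with PBS. Saa3, a serum amyloid A gene whose family binds FPR2, fell the furthest on log2(FPKM + 1) among the tested genes of the list, from 556 ± 91.1 to 61.2 ± 7.61 FPKM (log2 fold change -3.16, limma, adjusted p = 1.97e-06). Camp, a neutrophil granule gene whose peptide also binds FPR2, rose from 31.4 ± 4.10 to 108 ± 2.13 FPKM (log2 fold change 1.76, limma, adjusted p = 4.13e-06). Anxa1, the gene of the FPR2 ligand annexin A1, fell from 203 ± 4.09 to 112 ± 2.86 FPKM. Its log2 fold change of -0.85 was short of the threshold (limma, adjusted p = 1.23e-06). Ligand mRNA can come from ID8 cells as well as from BMDMs, and the ID8 and mesothelial markers given above moved with the same groups. The part of ID8 RNA in the ligand values was not tested.

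Of 26 genes that act directly downstream of these receptors, all were tested, 5 were called higher and 1 lower, while the adjusted p alone found 20 higher and 3 lower, Rgs1 among the former having passed the filter only through the cisplatin libraries so that it had to differ. The most abundant were the G protein subunits Gnai2 (log2 fold change 0.21) and Gnb1 (-0.068, limma, adjusted p = 0.226) and the GTPase gene Rac2 (0.22). Dock2, which activates RAC in migrating leukocytes, rose from 15.4 ± 0.20 to 33.5 ± 1.07 FPKM (log2 fold change 1.07, limma, adjusted p = 8.03e-07) and Plcb2, a phospholipase that the G proteins switch on, from 10.8 ± 0.093 to 23.3 ± 1.54 FPKM (log2 fold change 1.05). The RGS genes, whose products shorten G protein signals, moved in both directions: Rgs18 (log2 fold change 1.52), Rgs2 (1.13) and Rgs19 (1.03) rose, and Rgs10 fell (-1.14, limma, adjusted p = 1.39e-06). Limma voom on the recovered reads called 8 of the list higher, and limma under the pan-leukocyte scaling called 0, with 6 higher at an unadjusted p under 0.05.

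**Figure D4:**
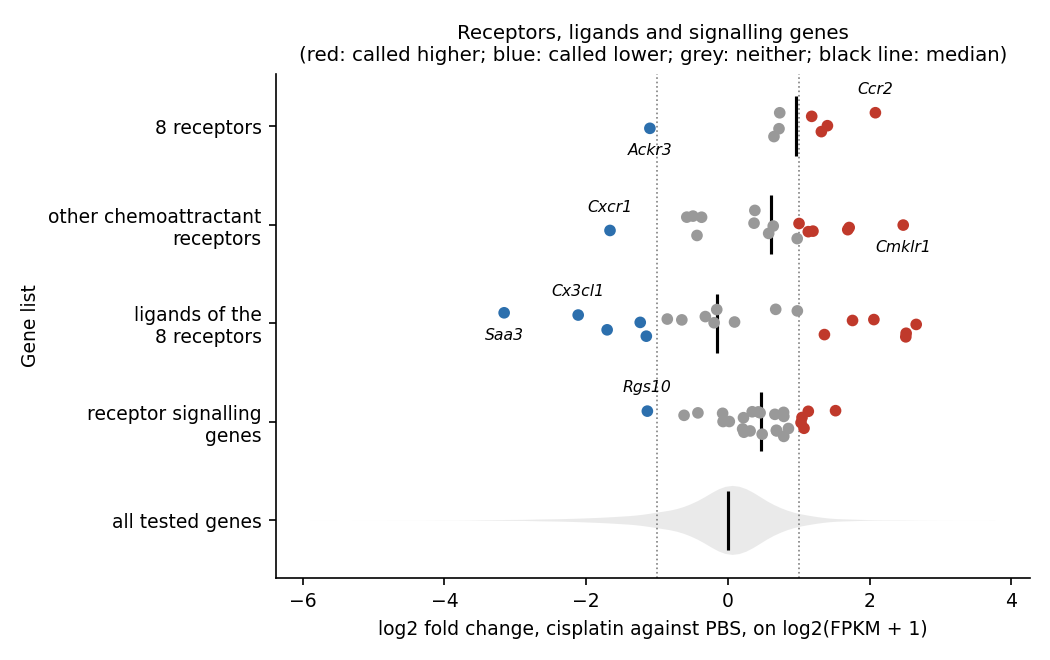
Log2 fold change (cisplatin against PBS, on log2(FPKM + 1)) of the tested genes of the 8 receptors, the other chemoattractant receptors, the ligands and the signalling genes, above the distribution of all tested genes, red where called higher, blue where called lower and grey otherwise, with black lines at the medians and dotted lines at -1 and 1. The receptor median of 0.96 lies right of that of all tested genes (-0.0011) and the ligand median of -0.16 left of it, and both directions occur in every list.

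The genes nearest to each receptor in pattern were found among 11334 other protein-coding genes by the Euclidean distance of log2(FPKM + 1) over the 6 libraries, each gene centred on its mean. Since the groups differ so widely, this distance reflects mostly the size of the group difference. Nearest to Ccr2 were Siglech (distance 0.176), a marker of plasmacytoid dendritic cells, and Cst7 (0.195), which encodes cystatin F. Ccr1 was nearest to Tma16 (0.0866) and Gnl3 (0.0938), Cxcr4 to Serpinb9b (0.0636) and Lat2 (0.0656), and Fpr1 to Prdx6 (0.0601) and Mdm2 (0.0704). Ackr3 was nearest to Mfge8 (0.0489) and Hacd3 (0.0502), Cx3cr1 to Dusp22 (0.0672) and Rassf5 (0.0820), Cxcr2 to Celsr3 (0.0827) and E130309D02Rik (0.0949), and Fpr2 to Zfp472 (0.0658) and the chemokine gene Ccl7 (0.0684).

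The marker lists of other cell types were compared to show what moved with the groups. Of 10 lymphocyte genes 6 were tested and 3 were called higher, and the list summed to 269 to 275 FPKM with cisplatin and 114 to 123 with PBS. The T cell gene Cd3e was near 0 at 0.339 ± 0.069 and 0.233 ± 0.066 FPKM (SD, n = 3 each). Of 7 dendritic cell genes 4 were tested, 3 were called higher (Ccr7, also counted among the receptors, Siglech, and Flt3, which passed the filter only through the cisplatin libraries and so had to differ), and the list summed to 41.0 to 43.4 FPKM with cisplatin and 17.3 to 18.9 with PBS. The remaining tested gene, Zbtb46, was lower, at 0.609 ± 0.026 FPKM with cisplatin and 1.60 ± 0.095 with PBS (log2 fold change -0.69, limma, adjusted p = 0.00039). Zbtb46 passed the filter only through the PBS libraries, so it too had to differ. All 11 macrophage genes were higher at an adjusted p under 0.05 and 5 were called, among them Mertk, which passed the filter only through the cisplatin libraries and so had to differ. The list summed to 4233 to 4389 FPKM with cisplatin and 1646 to 1657 with PBS. Lyz2 alone made up most of this sum, at 3459 ± 80.4 FPKM with cisplatin and 1161 ± 10.8 with PBS. The part of these cell types in the receptor values was not tested.

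**Figure D5:**
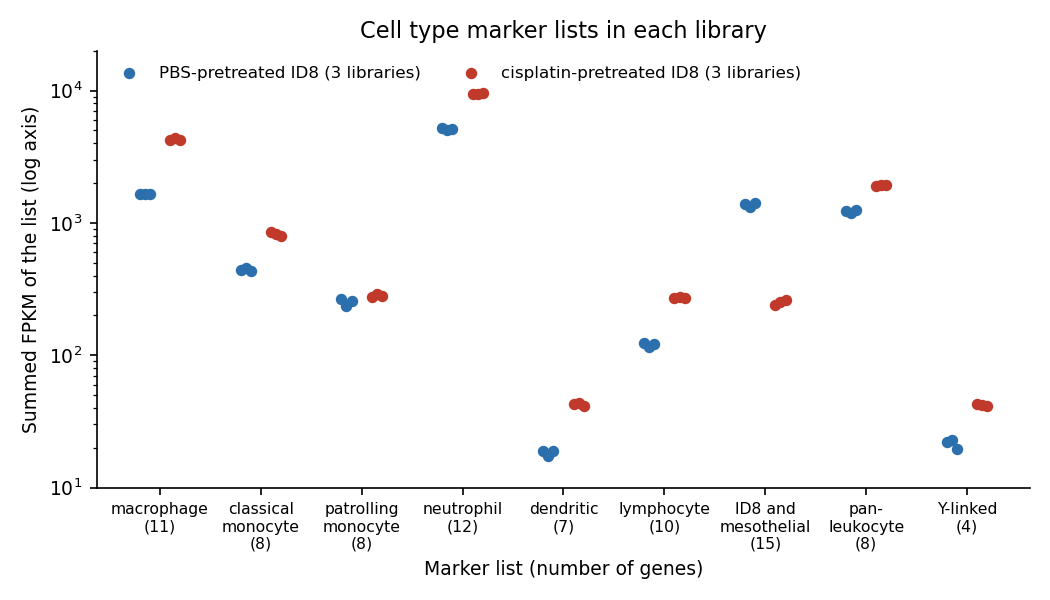
Summed FPKM (log axis) of each cell type marker list in the 6 libraries, with the number of genes in brackets, PBS in blue and cisplatin in red. The ID8 and mesothelial list is lower with cisplatin (238 to 261 against 1312 to 1422 FPKM), and the other lists are higher, the patrolling monocyte list by the least (277 to 291 against 234 to 265). Abundant genes weigh most in these sums, such as Lyz2 in the macrophage list.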

How the data were processed

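Poly-T selected RNA of 6 libraries was sequenced, 3 per group, with groups taken from the treatment labels and replicate numbers from the titles. The deposited table gives FPKM per gene, which the authors computed by scaling fragments to gene length and sequencing depth. The submitters' processing notes name fastp, HISAT2 2.0.5, featureCounts 1.5.0-p3 and mm10, whereas the study's methods name LifeScope, and whether strand was used is not stated. Multiplied by gene length, 100% of the values worth fewer than 200 reads were whole multiples of a fixed step within 0.01 reads, which gave the reads per gene and library. These cover 15776238 to 17924686 reads per library, so counting error is small except for Ackr3, Ccr2 with PBS and Cx3cr1.

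Genes with at least 1 FPKM in at least 3 libraries were tested on log2(FPKM + 1) with the group as the only term (limma 3.58.1, R 4.3.3, eBayes with a trend, two-sided). Calls needed a Benjamini-Hochberg adjusted p under 0.05 over all tested genes and a log2 fold change no smaller than 1 in size, the thresholds of the study's methods. The receptors, gene lists, motifs and tests were chosen with earlier results of these data known. Named genes are the 8 receptors, their chromosome neighbours, the 2 genes nearest to each in pattern, the defining markers, and from each list up to 6 called genes of at least 5 FPKM and the 3 most abundant. Of the genes this rule names, 2 are not reported here. Alternatives covered the pseudocount (0.1), the filter (dropped, or raised to 5 FPKM), 5 other scalings, eBayes without a trend, voom on the reads, the replicate number as a block, leaving out each library, the adjusted p alone and limma treat.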

Additional observations from a re-analysis of the deposited data

How the results depend on the processing

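Each of the 8 receptors kept its direction and its side of the thresholds when any single library was left out, with log2 fold changes of 2.01 to 2.12 for Ccr2 and -1.15 to -1.06 for Ackr3. Against 4 receptors called higher, the Y-linked scaling gave 1, the pan-leukocyte scaling 1 and the adjusted p alone 7. Against 1 called lower, the filter at 5 FPKM gave 0, since Ackr3 was not tested there, and quantile normalisation and limma treat gave 0 (Ackr3 passed the unadjusted p of 0.05 under the former and not under the latter). Scaling reversed Cxcr2 (-0.21, Y-linked) and Fpr2 (-0.27, Y-linked, and -0.046, pan-leukocyte). Over all genes, 628 were called higher and 1514 lower, against 835 and 1290 after quantile normalisation, where the median log2 fold change became 0.10. Limma voom gave 1227 and 1862, TPM rescaling 874 and 1882, limma treat 240 and 982, and a pseudocount of 0.1 gave 973 and 1981. The adjusted p alone gave 4424 and 4721. With the replicate number as a block 4 receptors were called higher and 1 lower, and 625 genes higher and 1515 lower in all. Same-numbered libraries did not deviate together (correlations of deviations -0.10, -0.086 and -0.024). These values cannot show whether such libraries shared a culture or an animal.

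Among the other chemoattractant receptors, calls went from 6 higher and 1 lower to 2 and 5 under both the Y-linked and the pan-leukocyte scaling, to 11 and 5 at the adjusted p alone, and to 0 lower with the filter at 5 FPKM (3 at an unadjusted p under 0.05), where Cxcr1 was not tested. Ligands called lower went from 5 to 9 (Y-linked), 8 (pan-leukocyte) and 9 (adjusted p alone). Signalling genes called higher went from 5 to 0 under either scaling (2 and 6 at an unadjusted p under 0.05), 8 under voom, 20 at the adjusted p alone and 1 under limma treat, and those called lower from 1 to 4 (Y-linked), 3 (pan-leukocyte), 3 (adjusted p alone) and 0 (treat). Counted in recovered reads, which are not corrected for gene length, the differences in share (cisplatin minus PBS, percentage points) moved from 1.80 to 2.74 for Ccr1, 0.864 to 3.54 for Ccr2, -0.013 to -0.075 for Cx3cr1, -0.795 to -1.79 for Cxcr2, -0.585 to -1.26 for Ackr3 and 3.84 to 1.64 for Fpr1. The cause of the other changes was not tested.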
